A study of Mus musculus with 6 samples.

Results

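The 7 genes described here encode enzymes that burn glucose or store it as glycogen. They are *Hk2*, *Pfkl*, *Pfkfb4*, *Tpi1*, and *Pgam1* of glycolysis, and *Gys1* and *Gbe1* of glycogen synthesis. They were chosen by name, with earlier results of these data known, and all 7 had a row among the 4864 genes analysed. They were measured by RNA-seq in cells that the study calls differentiated adipocytes. These were grown from adipose-derived stem cells (ADSCs) of the subcutaneous white fat of wild type male C57BL/6J mice. The 3 vehicle libraries (titled Control in the labels) came from cells given the differentiation mixture of dexamethasone, insulin, 3-isobutyl-1-methylxanthine, indomethacin, and triiodothyronine. The 3 NJT-2 libraries came from cells given the same mixture with NJT-2, a natural terpenoid that the study selected as a ligand of the nuclear receptor PPARγ. Cells of this model were harvested on differentiation day 8 and treated at 200 nM, and the labels give neither for single libraries. The labels do not say whether replicates came from separate animals or cultures, so that the p-values measure only the spread between these libraries. The comparison asks whether cells given NJT-2 differ from vehicle cells in the transcripts of these enzymes. The 2 groups also differed widely in adipocyte markers, which were low in vehicle, as given below. The part of that difference in the values of the 7 genes was not tested.

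In glycolysis, glucose is trapped in the cell by hexokinase, committed by phosphofructokinase, split into triose phosphates, and converted to pyruvate with a gain of ATP. In glycogen synthesis, the trapped glucose is activated as UDP-glucose, joined into chains by glycogen synthase, and branched by the branching enzyme. Fat cells use glucose carbon for the glycerol backbone of triglyceride, and their glycogen store is small. Several glycolytic genes are known targets of the hypoxia-inducible factors, transcription factors that are stable when oxygen is low.

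The genes analysed held between 16093037 and 28929673 counts per library. Levels are given as FPKM, which are counts scaled by a length for each gene and by the reads of the library. Of the 4864 genes, 3705 had a mean FPKM of at least 0.5 and were tested, all 7 genes among them. Within each group 1 library stood apart. By the Euclidean distance of log2(FPKM + 1), NJT-2 replicate 2 lay 58.0 and 55.3 from NJT-2 replicates 1 and 3, which were 11.8 apart, while for vehicle replicate 1 the distances to its group were 53.8 and 71.3 and the others of the group were 27.7 apart. The summed FPKM of the 10 adipocyte markers measured, of 14 listed, was 82.5 to 106 in vehicle and, by replicate, 1720, 489, and 1380 with NJT-2. *Adipoq*, which encodes the fat cell hormone adiponectin, was at an FPKM of 0.38 to 0.50 in vehicle, and *Lpl*, lipoprotein lipase, made up 55.1 to 78.8 of the vehicle sums. Because 1 library of each group stood apart, the fold changes of the 7 genes are given with and without NJT-2 replicate 2. Those without vehicle replicate 1 are given after the single genes.

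The sequences before the starts of 4 of the genes are shown. NJT-2 replicate 2 was the highest library for each of them, and they are the windows with the most matches (*Hk2* and *Pgam1*) and those of the glycogen genes, which had none. All 7 genes matched the RefSeq promoter table. Each run is the 250 bases before the annotated transcript start (RefSeq, GRCm38.p6), written 5′ to 3′ on the strand of the gene, and capitals mark the 5 letters ACGTG or GCGTG on either strand (CACGT and CACGC when read on the other strand). These letters are the core that hypoxia-inducible factors are known to bind. The window of *Hk2* is chr6:82774455-82774704 on the minus strand, that of *Pgam1* chr19:41911621-41911870 on the plus strand, that of *Gys1* chr7:45434589-45434838 on the plus strand, and that of *Gbe1* chr16:70313699-70313948 on the plus strand.
Hk2: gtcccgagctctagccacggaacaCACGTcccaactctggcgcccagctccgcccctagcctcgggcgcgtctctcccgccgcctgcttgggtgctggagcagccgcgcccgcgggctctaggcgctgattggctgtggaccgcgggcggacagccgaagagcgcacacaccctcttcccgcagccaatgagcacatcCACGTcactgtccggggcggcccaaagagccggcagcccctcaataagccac
Pgam1: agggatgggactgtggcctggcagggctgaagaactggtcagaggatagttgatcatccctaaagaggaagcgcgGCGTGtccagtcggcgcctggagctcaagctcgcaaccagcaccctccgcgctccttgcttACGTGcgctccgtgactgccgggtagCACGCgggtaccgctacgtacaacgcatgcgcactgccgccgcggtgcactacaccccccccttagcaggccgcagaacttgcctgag
Gys1: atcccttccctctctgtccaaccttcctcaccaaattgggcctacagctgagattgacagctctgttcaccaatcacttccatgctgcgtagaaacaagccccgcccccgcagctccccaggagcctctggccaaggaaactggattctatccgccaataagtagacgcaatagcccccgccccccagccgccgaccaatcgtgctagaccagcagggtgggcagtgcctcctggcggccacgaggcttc
Gbe1: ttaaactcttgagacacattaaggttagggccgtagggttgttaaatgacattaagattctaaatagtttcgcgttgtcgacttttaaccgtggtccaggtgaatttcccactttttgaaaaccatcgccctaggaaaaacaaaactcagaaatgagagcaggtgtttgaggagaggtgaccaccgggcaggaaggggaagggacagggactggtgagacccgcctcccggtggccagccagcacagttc
The *Hk2* window held ACGTG at 2 places, with the first base 226 and 52 bases before the start. The *Pgam1* window held ACGTG once, 114 bases before the start, and GCGTG at 2 places, 175 and 88 bases before it. The windows of *Pfkl* and *Pfkfb4*, not printed, held GCGTG once each, 99 and 117 bases before the start. Those of *Tpi1*, *Gys1*, and *Gbe1* held neither. The RefSeq starts are not always the gene starts given below. The windows of *Pfkfb4* (chr9:108991652-108991901) and *Tpi1* (chr6:124814159-124814408) lie partly inside those gene spans, the *Pfkfb4* match included. The longer motif CACGTG, which contains ACGTG and is bound by many basic helix-loop-helix factors, was in none of the 7 windows. Among the windows of all 32851 promoters in the same table, 16.6% held ACGTG, 28.2% held GCGTG, 38.6% held either, and 6.02% held CACGTG. A match of 5 letters describes the sequence and is not evidence of a bound site.

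*Hk2* encodes hexokinase 2, the insulin-responsive isozyme that phosphorylates glucose at the entry of glycolysis (ENSMUSG00000000628, chr6:82725025-82774454, minus strand, GRCm38). Its FPKM was 3.6, 8.33, and 12.1 in vehicle, by replicate, and 13.5, 84.6, and 13.4 in NJT-2. All NJT-2 libraries were above all vehicle libraries, but NJT-2 replicates 1 and 3 exceeded the highest vehicle library by little and NJT-2 replicate 2 stood far above both. The mean was 8.00 ± 4.24 (SD, n = 3) in vehicle and 37.2 ± 41.1 in NJT-2. The log2 fold change was 2.198 ± 0.81 (SE, edgeR unadjusted p = 0.0282 and adjusted p = 0.239). It was 0.63 ± 0.37 (SE, edgeR adjusted p = 0.386) without NJT-2 replicate 2.

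*Pfkl* encodes the liver-type subunit of phosphofructokinase 1, which commits glucose to glycolysis (ENSMUSG00000020277, chr10:77986947-78009807, minus strand). Its FPKM was 74.0, 58.2, and 49.5 in vehicle and 22.3, 92.4, and 27.97 in NJT-2, in the order of the replicates. NJT-2 replicates 1 and 3 were below every vehicle library and NJT-2 replicate 2 was above every one. The means were 60.6 ± 12.4 and 47.6 ± 39.0 (SD, n = 3 each), and the log2 fold change of -0.57 ± 0.65 (SE, edgeR adjusted p = 0.622) was within its error. Without NJT-2 replicate 2 it was -1.58 ± 0.47 (SE, edgeR unadjusted p = 0.0176 and adjusted p = 0.160).

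*Pfkfb4* encodes 6-phosphofructo-2-kinase/fructose-2,6-bisphosphatase 4, which sets the level of an activator of phosphofructokinase 1 (ENSMUSG00000025648, chr9:108991778-109032228, plus strand). It had the lowest mean level of the 7 genes, with an FPKM of 2.18, 2.51, and 2.53 in vehicle and 1.88, 1.40, and 1.95 in NJT-2. All NJT-2 libraries were below all vehicle libraries, and NJT-2 replicate 2 was the lowest of the 6. The means were 2.41 ± 0.197 and 1.74 ± 0.299 (SD, n = 3 each), and the log2 fold change, at -0.66 ± 0.36 (SE, edgeR adjusted p = 0.339), did not pass the test. It moved little, to -0.56, without NJT-2 replicate 2.

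*Tpi1* encodes triosephosphate isomerase, which interconverts the 2 triose phosphates and so links glycolysis with the glycerol phosphate of triglyceride (ENSMUSG00000023456, chr6:124810586-124814296, minus strand). Its FPKM was 256, 223, and 162 in vehicle and 144, 316, and 153 in NJT-2. The groups overlapped through NJT-2 replicate 2, since the other NJT-2 libraries were below all vehicle libraries. The log2 fold change was -0.30 ± 0.51 (SE, edgeR adjusted p = 0.743) with it and -0.83 ± 0.46 (SE, edgeR adjusted p = 0.365) without it. Exons of *Tpi1* share 34 of 2753 bases with *Spsb2* on the other strand.

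*Pgam1* encodes phosphoglycerate mutase 1, which moves the phosphate of 3-phosphoglycerate in lower glycolysis (ENSMUSG00000011752, chr19:41911923-41918660, plus strand). Its FPKM was 87.1, 302, and 305 in vehicle and 223, 683, and 225 in NJT-2. Here both libraries that stood apart were at the ends, vehicle replicate 1 the lowest and NJT-2 replicate 2 the highest of the 6. The means were 231 ± 125 and 377 ± 265 (SD, n = 3 each), and the log2 fold change was 0.68 ± 0.59 (SE, edgeR adjusted p = 0.512). Without NJT-2 replicate 2 the sign turned, to -0.15 ± 0.42 (SE, edgeR adjusted p = 0.840). The mouse annotation holds 2 pseudogenes named after *Pgam1*, and reads that match them equally could have been split or lost, which makes its level uncertain.

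*Gys1* encodes muscle-type glycogen synthase, the form used outside the liver, which lengthens the glycogen chains (ENSMUSG00000003865, chr7:45434844-45456619, plus strand). Its FPKM was 23.1, 23.9, and 25.1 in vehicle and 26.7, 103, and 25.9 in NJT-2. All libraries but NJT-2 replicate 2 thus lay close together. The means were 24 ± 1.02 and 51.7 ± 44.0 (SD, n = 3 each), and the log2 fold change was 0.94 ± 0.62 (SE, edgeR adjusted p = 0.396). It was -0.12 ± 0.29 (SE, edgeR adjusted p = 0.815) without NJT-2 replicate 2. The NJT-2 libraries were all above the vehicle libraries in FPKM by a small margin. After TMM scaling they were not, since vehicle replicate 1 was then at 519 CPM (counts scaled to a common library size) and NJT-2 replicates 1 and 3 were at 381 and 363. Exons of *Gys1* share 310 of 4789 bases with *Ruvbl2* on the other strand, whose FPKM was between 13.98 and 22.3 in all 6 libraries.

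*Gbe1* encodes the glycogen branching enzyme (ENSMUSG00000022707, chr16:70313949-70569716, plus strand). Its FPKM was 1.47, 9.74, and 11.9 in vehicle and 22.4, 80.0, and 20.2 in NJT-2. All NJT-2 libraries were above all vehicle libraries, and of the 7 genes *Gbe1* had the clearest gap between NJT-2 replicates 1 and 3 and the highest vehicle library. The means were 7.72 ± 5.52 and 40.9 ± 33.9 (SD, n = 3 each), and the log2 fold change was 2.44 ± 0.79 (SE, edgeR unadjusted p = 0.0162 and adjusted p = 0.204). Without NJT-2 replicate 2 it was 1.41 ± 0.66 (SE, edgeR adjusted p = 0.318).

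**Figure D1:**
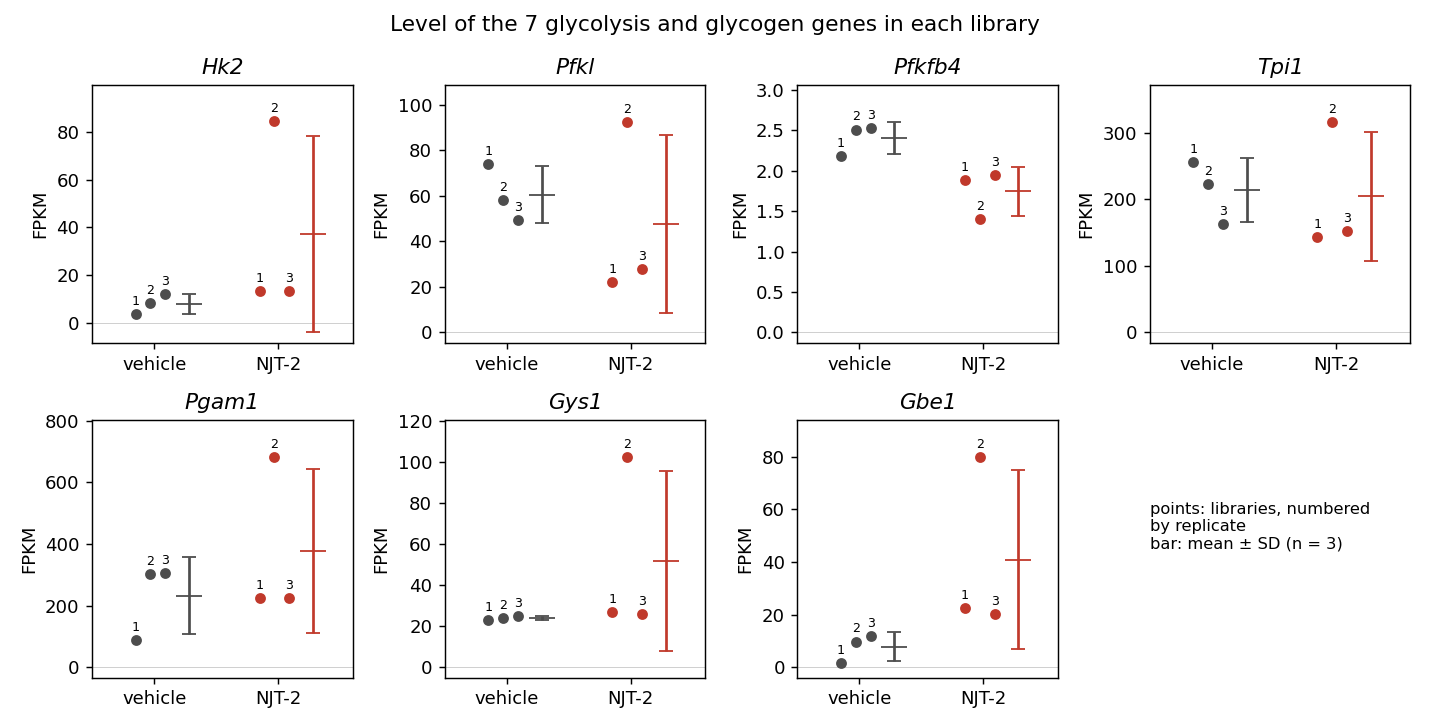
FPKM of each of the 7 genes (vertical axis, linear, own scale per gene) in the 3 vehicle and 3 NJT-2 libraries, with points numbered by replicate and bars for the mean ± SD (n = 3). NJT-2 replicate 2 is the highest point in every panel except that of *Pfkfb4*, where it is the lowest.

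By mean FPKM in vehicle the order was *Pgam1*, *Tpi1*, *Pfkl*, *Gys1*, *Hk2*, *Gbe1*, and *Pfkfb4*. The neighbours *Pgam1* and *Tpi1* (231 and 214) and the neighbours *Hk2* and *Gbe1* (8.00 and 7.72) differed by less than their SD. Across the 7 genes, none passed the limits of an adjusted p under 0.05 and a fold change over 2 in edgeR. The shares over all genes tested were 0.567% called higher and 0.135% called lower. At an unadjusted p under 0.05, *Hk2* and *Gbe1* were higher and none was lower, against 8.04% higher and 9.72% lower over all genes. DESeq2, the tool the study used, called these 2 genes higher, *Hk2* with a log2 fold change of 2.24 (adjusted p = 0.0451) and *Gbe1* with 2.48 (adjusted p = 0.0169), where it called 4.4% of all genes higher. In FPKM, 3 of the 7 genes (*Hk2*, *Gys1*, and *Gbe1*) had all NJT-2 libraries above all vehicle libraries and 1 (*Pfkfb4*) had all below, against 14.4% and 11.5% of all genes. A p that missed the limit does not show that the groups were alike, since the spread in NJT-2 was wide and the SD of *Hk2* exceeded its mean.

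The 2 groups were then compared without NJT-2 replicate 2. Leaving it out lowered the log2 fold changes of *Hk2*, *Pgam1*, *Gys1*, and *Gbe1*. It took those of *Pfkl* and *Tpi1* further below 0 and moved that of *Pfkfb4* little. None of the 7 genes was called in edgeR, where 1.51% of all genes were called higher and 0.513% lower. The median log2 fold change of the 7 genes went from 0.68 to -0.15, while the median over all genes tested went from 0.02 to -0.09. In FPKM, relative to all vehicle libraries, NJT-2 replicates 1 and 3 were both higher in *Hk2*, *Gys1*, and *Gbe1* and both lower in *Pfkl*, *Pfkfb4*, and *Tpi1*, which is 3 genes each way. Over all genes tested, 29.2% had both of these libraries above and 18.2% had both below. After TMM scaling, the scale of the edgeR fit, *Gys1* dropped out, which left 2 genes higher and 3 lower. The shares over all genes just given are for FPKM. When vehicle replicate 1 was left out as well, which leaves 2 libraries a group, *Pfkl* was called lower (log2 fold change -1.11, edgeR adjusted p = 0.0218) and *Gbe1* had the same adjusted p but a log2 fold change of 0.97, just under the limit. In that fit 6.88% of all genes were called higher and 6.13% lower. With only vehicle replicate 1 left out, none of the 7 genes was called in edgeR, where 1 of all genes was. The log2 fold changes were then 1.96 for *Hk2*, -0.11 for *Pfkl*, -0.54 for *Pfkfb4*, and 0.12 for *Tpi1*. They were 0.37 for *Pgam1*, 1.15 for *Gys1*, and 1.98 for *Gbe1*.

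**Figure D2:**
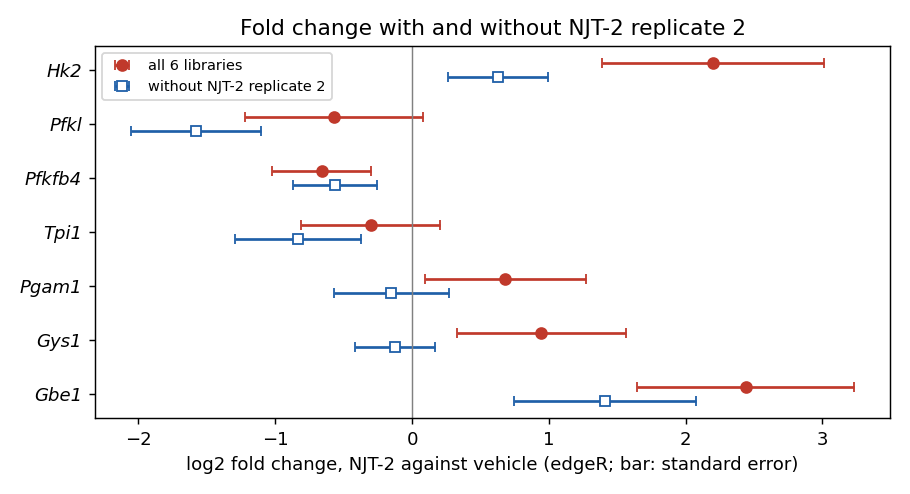
Log2 fold change of each of the 7 genes, NJT-2 against vehicle, from edgeR, with bars for the standard error, for all 6 libraries (filled circles) and without NJT-2 replicate 2 (open squares). *Hk2* moves from 2.198 to 0.63 and *Pfkl* from -0.57 to -1.58, while *Pfkfb4* stays near its value.

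NJT-2 replicate 2 was set against NJT-2 replicates 1 and 3 as a description, with no test, since it is 1 library that stood apart in the data. On the scale of log2 CPM it was above their mean by 2.79 for *Hk2*, 2.1 for *Gys1*, 2.04 for *Gbe1*, 2.02 for *Pfkl*, 1.74 for *Pgam1*, and 1.23 for *Tpi1*. These are folds of 6.90, 4.29, 4.12, 4.06, 3.35, and 2.34. For *Pfkfb4* the log2 ratio was -0.31. Hexokinase 2 transcripts thus stood highest against the pair, and those of triosephosphate isomerase least among the genes with a positive ratio. In all, 6 of the 7 genes were over 1 log2 unit above the pair, and none was over 1 log2 unit below, where 15.4% of all genes tested were above and 15.6% below by this measure. In FPKM, NJT-2 replicate 2 was the highest of all 6 libraries for the same 6 genes, as it was for 24.4% of all genes. After TMM scaling vehicle replicate 1 was the highest for *Pfkl* (2310 CPM against 2000 in NJT-2 replicate 2) and *Tpi1* (3300 against 2820). Over all genes tested 2.65% had a higher ratio than *Hk2* and 12.4% a higher one than *Tpi1*, and the median ratio over all genes was -0.10.

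**Figure D3:**
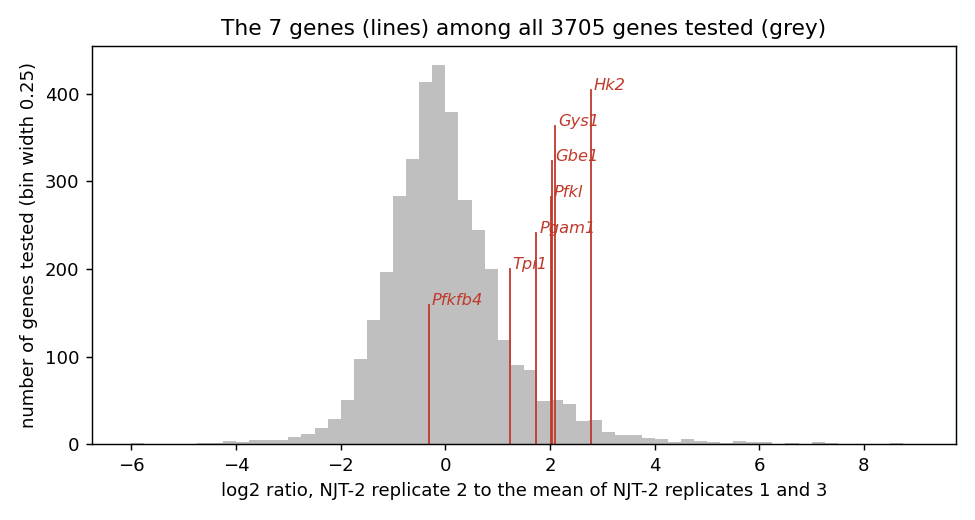
Distribution of the log2 ratio of NJT-2 replicate 2 to the mean of NJT-2 replicates 1 and 3 (horizontal axis) over all 3705 genes tested (grey bars, number of genes per bin of 0.25), with the 7 genes as labelled lines whose height has no meaning. The lines of the other 6 genes lie between 1.23 and 2.79, right of the bulk of the genes, while that of *Pfkfb4* is at -0.31.

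The 7 genes were set beside other gene groups across the libraries. The summed FPKM of the 7 genes was 447.4, 627.8, and 568.3 in vehicle and 453.3, 1360, and 467.7 in NJT-2, with NJT-2 replicate 2 the highest. *Pgam1* and *Tpi1* make up most of this sum, which does not show the spread of the less abundant genes over the other libraries, such as 1.47 to 22.4 for *Gbe1* and 22.3 to 74.0 for *Pfkl*. The summed FPKM of 11 genes of the low oxygen response outside glycolysis was 266, 536, and 611 in vehicle and 612, 2110, and 666 in NJT-2, with the same library highest. A single gene, *Ero1l*, made up 263, 777, and 282 of these NJT-2 sums but only 17.4 to 38.8 of the vehicle sums. Within the NJT-2 group the 10 adipocyte markers went the other way from both sums. Of these 10, 9 were over 1 log2 unit lower in NJT-2 replicate 2 than in the pair, against 15.6% of all genes tested. Between the groups, edgeR called 6 of these 10 higher. It also called 1 of the 3 macrophage markers measured higher, *Adgre1* (edgeR adjusted p = 0.0408). Over all genes tested 0.567% were called higher. The summed FPKM of 3 of 12 macrophage markers was 9.67 to 12.7 in vehicle and 56.8, 31.2, and 43.8 in NJT-2, that of 3 of 11 preadipocyte and fibroblast markers was 197 to 792 in vehicle and 397 to 445 in NJT-2, and that of 2 of 5 endothelial markers was 0.40 to 2.11 and 1.30 to 2.42. The preadipocyte and fibroblast sum was mostly the collagen gene *Col1a1*, and the other markers were below vehicle in every NJT-2 library. *Pi16*, a marker of adipose progenitors, was at 22.3, 19.4, and 12.5 in vehicle and 1.73, 0.98, and 1.95 in NJT-2 and was called lower (log2 fold change -3.83 ± 0.50 SE, edgeR adjusted p = 0.027). This call was lost without vehicle replicate 1 (0.0617), vehicle replicate 2 (0.243), NJT-2 replicate 1 (0.11), or NJT-2 replicate 3 (0.10), each an edgeR adjusted p. *Pdgfrb* was at 56.7 to 88.5 and 19.5 to 41.0 (log2 fold change -1.34 ± 0.36 SE, edgeR adjusted p = 0.151). None of these 3 sums set NJT-2 replicate 2 as far apart as the 7 genes did. The part of these cell types or of a low oxygen response in the values of the 7 genes was not tested, and in bulk RNA more cells of a type and more RNA per cell cannot be told apart.

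**Figure D4:**
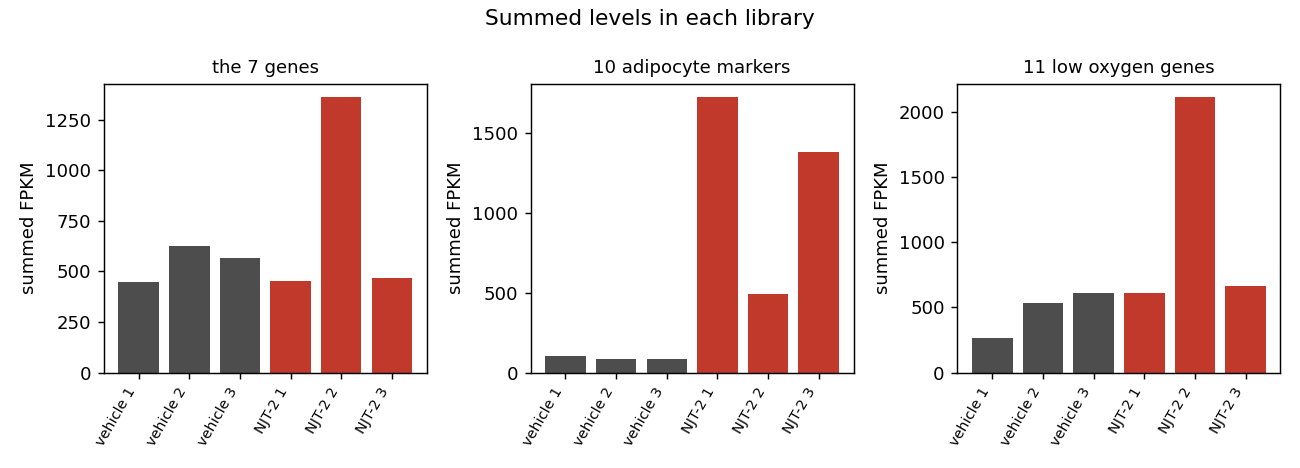
Summed FPKM (vertical axes, linear from 0) of the 7 genes, of 10 adipocyte markers, and of 11 genes of the low oxygen response in each library, grey for vehicle and red for NJT-2. NJT-2 replicate 2 is the tallest bar for the 7 genes (1360) and the low oxygen genes (2110) and the shortest NJT-2 bar for the adipocyte markers (489).

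Related isozymes were measured for 3 of the 7 genes. *Pfkp*, the platelet-type phosphofructokinase 1, had an FPKM of 2.91, 5.52, and 6.58 in vehicle and 7.35, 48.7, and 8.26 in NJT-2, with all NJT-2 libraries above all vehicle libraries (log2 fold change 2.04 ± 0.78 SE, edgeR adjusted p = 0.252). Its log2 fold change was 0.48 ± 0.26 (SE, edgeR adjusted p = 0.363) without NJT-2 replicate 2. By FPKM *Pfkl* was the higher of the pair in every library. In counts, which are not scaled by length, *Pfkp* was the higher in NJT-2 replicate 2 (45778 against 43234). The ratio of *Pfkl* to *Pfkp* in FPKM, a measure chosen after these values were seen, was 25.4, 10.5, and 7.52 in vehicle and 3.03, 1.9, and 3.39 in NJT-2, so that every NJT-2 library had a lower ratio than every vehicle library, NJT-2 replicate 2 included. *Pfkfb1*, an isozyme of *Pfkfb4*, had an FPKM of 0.74, 0.94, and 0.62 in vehicle and 3.58, 0.37, and 3.20 in NJT-2 (log2 fold change 1.38, edgeR adjusted p = 0.349), with NJT-2 replicate 2 the lowest of the 6 (log2 fold change 1.88 without it, edgeR adjusted p = 0.0857). *Pgam2*, the muscle isozyme of *Pgam1*, was at 0 in vehicle replicate 1 and between 1.39 and 5.54 in the others, far below *Pgam1*. *Hk1*, *Hk3*, *Pfkm*, *Pfkfb2*, *Pfkfb3*, and *Gys2* were not analysed here.

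Of the 20 other glycolysis enzymes on the list used here, 4 were tested and none was called in edgeR or DESeq2. Their median log2 fold change was 1.14 with all libraries and 0.04 without NJT-2 replicate 2. In FPKM this library was the highest of the 6 for all 4, as it was for 6 of the 7 genes, against 24.4% of all genes. After TMM scaling vehicle replicate 1 was the highest for *Eno2*, as it was for *Pfkl* and *Tpi1*. *Aldoc*, aldolase C, was at 0.15, 3.27, and 10.5 FPKM in vehicle and 4.28, 13.7, and 2.70 in NJT-2. *Eno2*, the neuronal enolase, was at 8.02, 6.28, and 7.99 in vehicle and 4.55, 8.79, and 4.13 in NJT-2, the order also seen for *Pfkl* and *Tpi1*, with NJT-2 replicates 1 and 3 below and replicate 2 above every vehicle library.

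Of the 21 genes on the list for the entry, exit, and control of glycolysis other than *Pfkfb4*, 7 were tested. All 7 had positive fold changes, as had 1883 of the 3705 genes tested. Of the 7, 4 had an unadjusted p under 0.05 in edgeR, against 8.04% of all genes higher, and edgeR called none. DESeq2 called 2 of them higher, *Slc2a4* (adjusted p = 9.8e-08) and *Mpc1* (adjusted p = 0.00147), where it called 4.4% of all genes higher. It gave *Slc2a3* and *Slc16a3* no adjusted p. Here the genes split by library. *Slc2a3*, the glucose carrier GLUT3, was at 0.39, 0.74, and 1.73 FPKM in vehicle and 0.96, 50.4, and 1.43 in NJT-2, so that only NJT-2 replicate 2 was high (log2 fold change 4.22 ± 1.55 SE, edgeR adjusted p = 0.236, and 0.21 ± 0.55 without it). *Slc2a4*, the insulin-responsive carrier GLUT4 and also one of the adipocyte markers, was at 0, 0.13, and 0.12 in vehicle and 15.8, 1.19, and 8.33 in NJT-2 (edgeR adjusted p = 0.0933, and 0.0527 without NJT-2 replicate 2, the lowest of its group). *Mpc1*, a subunit of the mitochondrial pyruvate carrier, was at 0.70, 6.35, and 6.91 in vehicle and 45.01, 17.8, and 33.4 in NJT-2 (log2 fold change 2.76 ± 0.70 SE, edgeR adjusted p = 0.134, and 3.03 ± 0.77 without NJT-2 replicate 2). *Pdk4*, a kinase that shuts off pyruvate dehydrogenase, was at 2.09 to 6.49 in vehicle and 8.14 to 10.9 in NJT-2. *Slc16a3*, the lactate exporter MCT4, named here after its values were seen, was at 20.8, 23.99, and 21.2 in vehicle and 3.78, 79.0, and 5.92 in NJT-2. It had the order of *Pfkl* in a stronger form, and without NJT-2 replicate 2 it was called lower (log2 fold change -2.43 ± 0.37 SE, edgeR adjusted p = 0.0444).

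For the glycogen pathway, 3 of the 14 other genes of synthesis were tested. All 3 were higher with an unadjusted p under 0.05 in edgeR, against 8.04% of all genes tested, and edgeR called none of them. In FPKM all 3 had every NJT-2 library above every vehicle library as *Gbe1* had, against 14.4% of all genes. DESeq2 called 2 of them higher, *Ugp2* (adjusted p = 0.00926) and *Gyg* (adjusted p = 0.00829), where it called 4.4% of all genes higher. *Ugp2*, which makes UDP-glucose, was at 6.73, 23.7, and 25.8 FPKM in vehicle and 48.4, 129, and 52.4 in NJT-2 (log2 fold change 2.00 ± 0.56 SE, edgeR adjusted p = 0.164, and 1.33 ± 0.42 without NJT-2 replicate 2). *Gyg*, glycogenin, the protein that primes a glycogen particle, was at 9.34, 17.5, and 14.7 in vehicle and 46.7, 23.5, and 44.9 in NJT-2, and here NJT-2 replicate 2 was the lowest of its group. Its log2 fold change was 1.32 ± 0.34 (SE, edgeR adjusted p = 0.142), and without NJT-2 replicate 2 it was called higher (log2 fold change 1.54, edgeR adjusted p = 0.0473). *Gsk3b*, a kinase that inhibits glycogen synthase, was at 1.29, 4.47, and 7.96 in vehicle and 9.04, 24.7, and 8.88 in NJT-2 (log2 fold change 1.64, and 0.90 without NJT-2 replicate 2). Of the 13 genes of glycogen breakdown 2 were tested. *Pygl*, liver-type glycogen phosphorylase, was at 4.53 to 6.87 in vehicle and 6.76, 15.4, and 5.98 in NJT-2, and *Gaa*, the lysosomal glucosidase, overlapped between groups (43.0 to 63.0 and 49.1 to 64.6).

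Over these 4 pathway lists, leaving out the 7 genes, 16 of 68 genes were tested. They had 14 positive and 2 negative fold changes. The median was 1.35 (0.02 over all genes tested), and 0.69 without NJT-2 replicate 2. NJT-2 replicate 2 was over 1 log2 unit above the pair for 10 and below it for 2. Over all genes tested these shares were 15.4% and 15.6%. Of the 10 low oxygen genes tested, *Ero1l*, an oxidase of the endoplasmic reticulum, was called higher, at 17.4, 29.6, and 38.8 FPKM in vehicle and 263, 777, and 282 in NJT-2 (log2 fold change 3.86 ± 0.58 SE, edgeR adjusted p = 0.0408). This call was kept without NJT-2 replicate 2 (edgeR adjusted p = 0.0165) and lost when any of the other libraries was left out (edgeR adjusted p from 0.0851 to 0.30). *Mxi1*, *Ddit4*, and *Epas1* had unadjusted p values of 0.0388, 0.0499, and 0.0348 in edgeR, the first 2 with positive and *Epas1* with negative fold changes. *Ndrg1*, named after its values were seen, was at 7.43 to 14.4 in vehicle and 3.27, 183, and 3.18 in NJT-2, and was called lower without NJT-2 replicate 2 (log2 fold change -2.01, edgeR adjusted p = 0.0342). In FPKM, NJT-2 replicate 2 was the highest of the 6 libraries for 8 of the 10 low oxygen genes tested, against 24.4% of all genes. The median log2 fold change of these 10 was 1.121 with it and -0.17 without it.

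**Figure D5:**
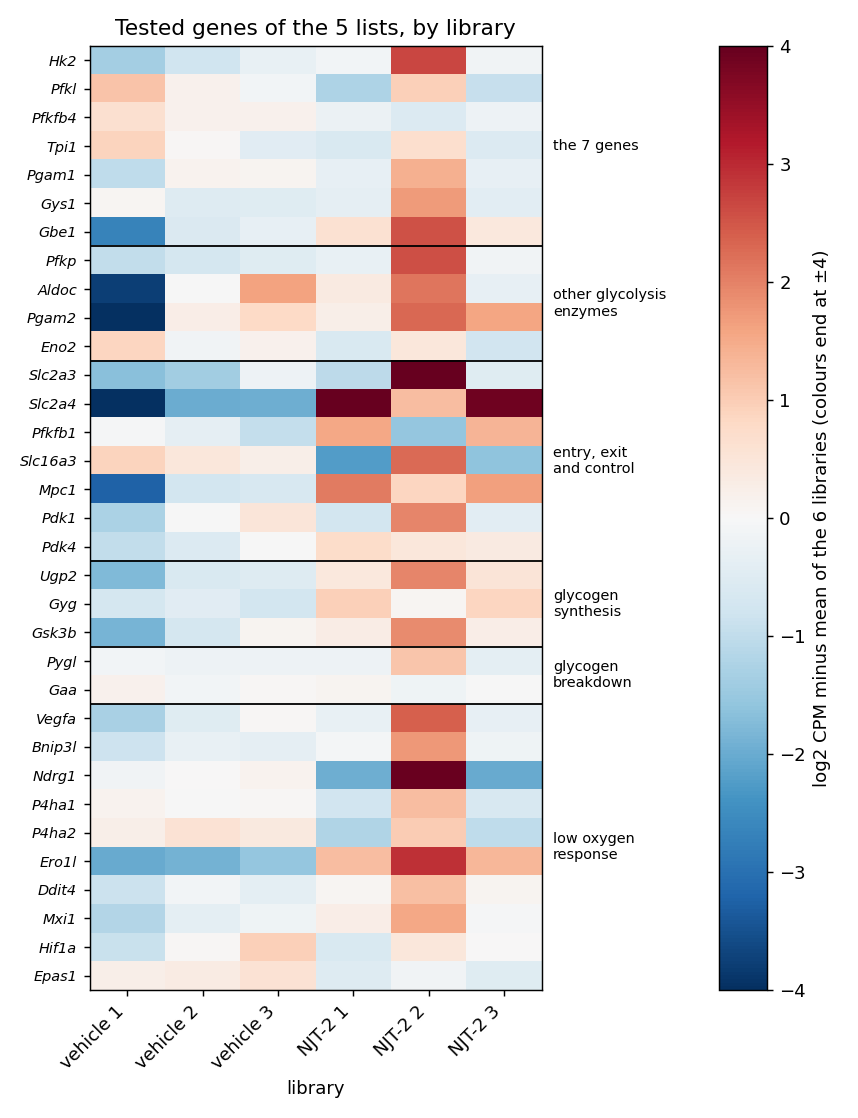
Log2 CPM minus the mean of the 6 libraries (colour scale from blue to red, ending at ±4) for the 7 genes and the tested genes of the 5 lists (rows), by library (columns). The NJT-2 replicate 2 column is red for 6 of the 7 genes and for the low oxygen genes other than *Epas1*, while *Slc2a4*, *Mpc1*, and *Gyg* are a stronger red in NJT-2 replicates 1 and 3.

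The genes outside the lists whose pattern was most like the mean centred log2 CPM of the 7 genes over the 6 libraries were *Mxd1* (Pearson r = 0.995), *Arhgap28* (0.994), *Pttg1ip* (0.988), *Plod1* (0.985), and *Rps6ka2* (0.983). The mean profile itself was -0.33, -0.20, and -0.20 in vehicle and -0.32, 1.35, and -0.30 in NJT-2, so that likeness over 6 libraries rested on NJT-2 replicate 2. *Plod1*, a lysyl hydroxylase of collagen, was at 16.9, 31.2, and 31.5 FPKM in vehicle and 22.8, 86.1, and 24.1 in NJT-2. *Mxd1*, a transcription factor of the MAX network, was at 1.09 to 2.37 in vehicle and 1.78, 13.4, and 2.06 in NJT-2.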

How the data were processed

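RNA-seq libraries of the vehicle and NJT-2 groups, 3 each, were analysed, grouped by their labels. The authors aligned the reads to GRCm38 and deposited 1 table with raw counts per gene, not normalized, and FPKM values that they computed from these counts. The submitters' processing notes name cutadapt 1.9, HISAT2 2.2.1, StringTie 2.1.6, DESeq2, and edgeR. The counting step, annotation release, and use of strand are not given in the sources used here, so that reads of overlapping genes may be mixed. Of 4865 lines 4864 were complete and 1 was left out. The lines are the first in Ensembl order, hold 27.7% to 32.5% of each library, and the pathway genes outside them were not analysed here. The 7 genes and the gene and marker lists were chosen with earlier results of these data known.

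Analyses were run in R 4.3.3 with edgeR 4.0.16 (quasi-likelihood test, TMM factors on the totals of the analysed genes). Only genes whose mean FPKM was 0.5 or more were tested. A call needed an adjusted p (Benjamini-Hochberg) under 0.05 together with a log2 fold change beyond 1 in either direction. Standard errors (SE) of fold changes came from the F statistic. Log2 CPM had a prior count of 2. DESeq2 1.42.0 and limma 3.58.1 served as alternatives, with other filters, scalings, and each library left out. Named beside the 7 genes were the called genes of each pathway or low oxygen list, or up to 4 with the smallest unadjusted p. Isozymes of the 7, the 5 genes most alike in profile, and some of the cell type markers were also named.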

Additional observations from a re-analysis of the deposited data

How the results depend on the processing

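The count of the 7 genes called with NJT-2 was 0 in edgeR and 0 when any single library was left out. It was 2 with DESeq2 (*Hk2* and *Gbe1*) and 1 (*Pfkl*) without both vehicle replicate 1 and NJT-2 replicate 2, an alternative chosen after seeing the data. For the other genes of the pathway and low oxygen lists, cell type markers not included, the count was 1. It was 5 with DESeq2, 9 without both of those libraries, and 0 to 4 when 1 library was left out. Over all genes the count was 26 in edgeR, 289 with DESeq2, 482 without both libraries, 75 without NJT-2 replicate 2, and 0 to 4 without any other library. It was 0 without vehicle replicate 2, with 421 genes at an unadjusted p under 0.05. The share of calls that were higher was 80.8% in edgeR, 69.0% with upper-quartile factors, and 56.4% with DESeq2. The sign turned for *Tpi1* without vehicle replicate 1 (log2 fold change 0.12, range -0.83 to 0.12 over the fits leaving out 1 library), for *Pgam1* without NJT-2 replicate 2 (-0.15, range -0.15 to 0.97) and without both libraries (-0.44), and for *Gys1* without NJT-2 replicate 2 (-0.12, range -0.12 to 1.29). *Hk2* and *Gbe1* were positive and *Pfkl* and *Pfkfb4* negative in all 18 alternatives. Adjusted p ran from 0.0451 to 0.472 for *Hk2*, from 0.0218 to 0.958 for *Pfkl*, and from 0.0169 to 0.426 for *Gbe1*. The cause of these shifts was not tested. Scaling by the implied library totals and limma on log2(FPKM + 1) moved the median of all genes by 0.14 and 0.16 on the log2 scale.

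The deviations of same-numbered libraries had correlations of 0.18, 0.03, and -0.21, and those of differently numbered libraries ran from -0.21 to 0.22. Because a library of each group stood apart and the groups are small, these values cannot decide whether the numbers pair the samples. With the replicate number as a block, 57 genes were called, none of them among the 7 and 2 on the pathway and low oxygen lists.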
